A study of Rattus norvegicus with 46 samples.

Results

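Immediate early genes are switched on within minutes of a signal from proteins already present in the cell. The 10 genes described here were taken by gene name from the 4 deposited count tables: Fos, Fosb, Fosl1 and Fosl2 (Fos-family subunits of the transcription factor AP-1), Jun and Junb (its Jun-family subunits), Egr1 (a zinc finger factor), Atf3 (a stress-induced bZIP factor), and Ier2 and Ier3 (immediate early response genes). Each name had 1 row, so 10 of 30045 genes are covered. RNA-seq was run on 46 samples, from the lungs or the whole blood of Fischer 344 rats, all male, which the study's title calls aged and whose labels give no age. The exposed rats breathed crystalline silica dust, the product Min-U-Sil 5, at 15 mg/m3 in whole-body chambers, and the others breathed filtered air, for 6 hours a day over 5 days. Tissue was taken either 1 day or 6 months later. Each tissue has silica and air groups at each time, of 6 samples each except 4 samples of late air lung. Lung RNA came from whole tissue and blood RNA was depleted of globin mRNA, so in both a change in the share of a cell type and a change in RNA per cell cannot be told apart.

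Fos proteins pair with Jun proteins and the pair, AP-1, binds DNA at genes for inflammation, matrix breakdown and cell growth. In many cells the genes for Fos and Egr1 are held ready by serum response factor (SRF), which binds a sequence called the CArG box, and by CREB, which binds the cyclic AMP response element (CRE), and kinases of the ERK, JNK and p38 families act on these factors. Their transcripts are short-lived, and in lung they are known to respond to inhaled particles, oxidants and stretch.

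A lung sample held 13.4 M to 24.6 M estimated counts in all, and a blood sample 10.6 M to 17.5 M. Within lung groups 5 pairs of samples differed by little more than the sampling noise (7.72% to 9.36% of genes at p under 0.05 by a chi-square test, against at least 20.9% for other pairs) and were counted as 1 library each. That leaves 6 silica and 4 air libraries at 1 day, and 5 silica and 2 air libraries at 6 months, named here by the sample numbers of the labels, with 30-31 the mean of samples 30 and 31. Blood keeps 6 libraries a group. Defining markers of alveolar type 1 and type 2 cells, endothelium and fibroblasts had no gene at 0 in any lung library. Neutrophil markers passed the test as higher in silica lung for 6 of 7 tested at 1 day and 7 of 7 at 6 months. Levels are CPM, each count divided by the library's total in M, scaled by TMM over the libraries of a tissue, and do not compare 1 gene with another for length.

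One day after silica, none of the 9 members tested passed the test between silica and air lungs, and the widest differences lay inside the silica group. Fos was 213 CPM in silica library 10 and 15.8, 23.6, 28.7, 39.9 and 44.8 CPM in the other silica lungs, against 28.8, 34.3, 56.4 and 77.8 CPM in air lungs. Library 10 was far above every other lung, while the other 5 silica lungs lay across and below the air range. Fosb, which encodes a close relative of Fos, was 72.5 CPM in library 10 and 2.88 to 9.49 CPM in the other silica lungs, against 5.46 to 20.4 CPM in air lungs. Egr1 was 136 CPM in library 10 and 20.7 to 43.9 CPM in the others, against 21 to 44.6 CPM in air. Atf3, induced by many kinds of stress, was 78.1 CPM in library 10 and 17.9 to 21 CPM in the others, against 13.5 to 20 CPM in air. The same library was also the highest silica lung for Junb (243 CPM), Jun (303 CPM), Ier2 (165 CPM), Ier3 (64.1 CPM) and Fosl2 (13.4 CPM). Fosl1 was the exception, with 0.258 CPM in library 10 and up to 0.49 CPM in another silica lung.

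**Figure D1:**
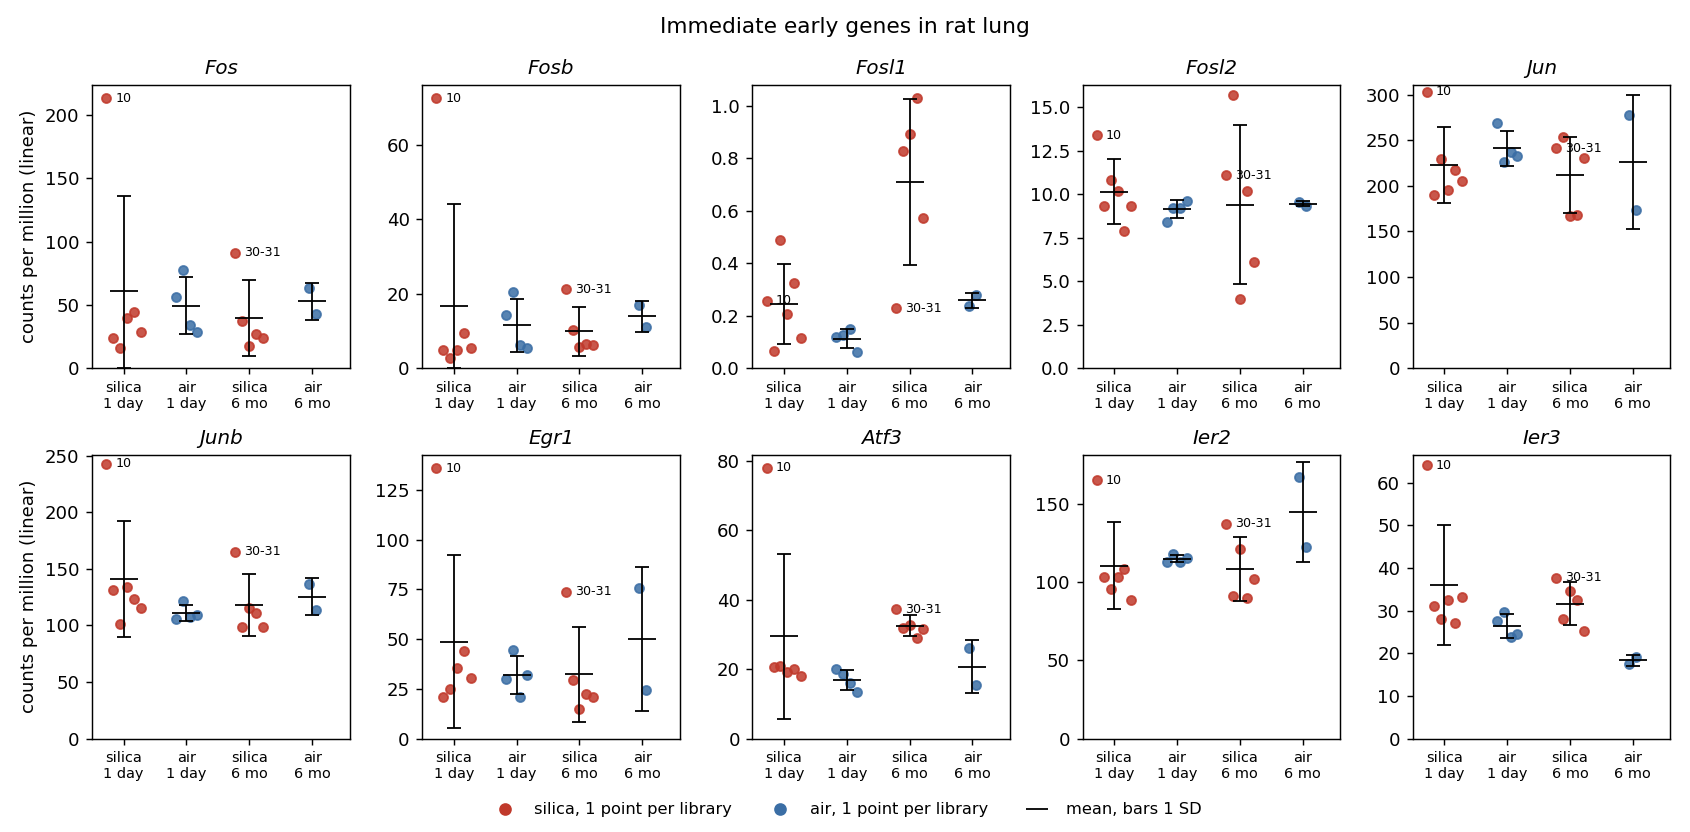
CPM (linear axes, each with its own range) of the 10 genes in every lung library, silica left of air at each time; bars give the mean and 1 SD, with lower bars cut at 0. Silica library 10 is the highest 1-day silica point for every gene but Fosl1, and library 30-31 is the highest 6-month silica point for Fos, Fosb, Junb, Egr1, Atf3, Ier2 and Ier3.

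Few other genes set library 10 this far from the next silica lung. Among 14943 genes compared within the 1-day silica group, 46 (0.308%) were at least 2-fold above the next highest library, and 4 of these were Fosb (7.65-fold), Fos (4.76-fold), Atf3 (3.72-fold) and Egr1 (3.11-fold). Ier3 (1.93-fold), Junb (1.81-fold) and Ier2 (1.52-fold) came next, and Jun (1.32-fold) and Fosl2 (1.23-fold) stood out least. The spread within the group followed: the coefficient of variation was 164% for Fosb, 123% for Fos, 89.8% for Egr1 and 80.9% for Atf3, against a median of 7.96% over genes. In 1-day air lungs Fos (45.4%) and Fosb (61.1%) also varied widely between libraries, whereas Ier2 varied by 2.08%, less than the median gene at 7.83%.

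The genes moved together from lung to lung. With each value set against the mean of its own group, the Pearson correlation with the mean of the other 9 genes over 17 lung libraries was 0.94 for Fos, 0.94 for Fosb, 0.89 for Egr1, 0.88 for Atf3 and 0.86 for Junb. It was 0.78 for Ier3, 0.76 for Ier2 and 0.67 for Jun. Fosl2 (0.38) and Fosl1 (-0.18) followed least. Without library 10 the values were 0.88 for Fos, 0.82 for Fosb and 0.86 for Egr1, and lower for Atf3 (0.59), Junb (0.60), Jun (0.49), Ier2 (0.43) and Ier3 (0.27). All points of such a correlation share libraries, so anything that sets one library apart enters every gene.

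Of 16558 genes compared, the 8 most like the mean of the members were Btg2 (r = 0.94), Cyr61 (0.91), Egr3 (0.90), Egr2 (0.89), Zfp36, Nr4a1, Carns1 and LOC100910636 (0.88 each). Btg2 encodes an antiproliferative protein, Cyr61 a matricellular protein, Egr2 and Egr3 relatives of Egr1, Zfp36 an mRNA-decay protein and Nr4a1 an orphan nuclear receptor. In library 10, Cyr61 was 321 CPM and Nr4a1 138 CPM, against 45.3 to 92.9 and 35.1 to 58.7 CPM in the other 1-day silica lungs. Without that library the 8 leading genes were others, led by LOC102553002 (0.93), Cnn2 (0.91) and Tada2b (0.90).

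**Figure D2:**
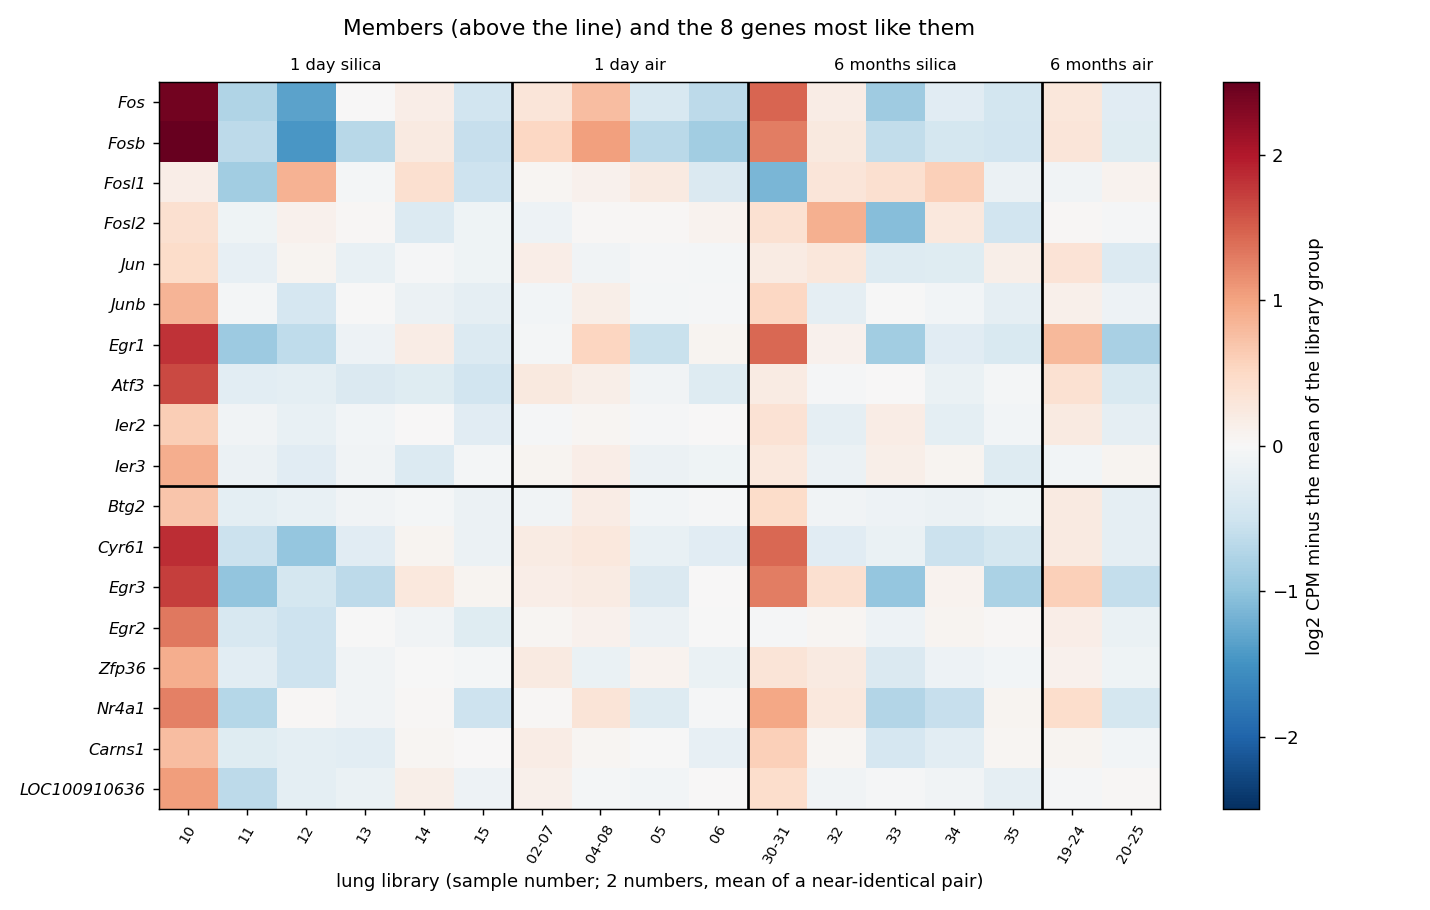
Heat map of log2 CPM (prior count 2) minus the mean of the library's own group, for the 10 genes above the line and the 8 most alike genes below it; columns are lung libraries. Library 10 is the strongest red column, 30-31 the next, and 04-08 and 19-24 are raised in Fos, Fosb and Egr1 within the air groups.

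The start regions of 3 members that were high in library 10, and of 2 of the 8 alike genes, picked for these sequences, are shown because the first 4 carry binding sequences through which genes of this class are known to be induced, and Junb for contrast, with neither a CArG box nor a full CRE. Each run is the 250 bases before the annotated start in RefSeq's GRCr8, 5′ to 3′ on the gene's strand. Capitals mark CArG boxes in Egr1 and Egr2, the CRE TGACGTCA in Ier2 and Btg2, and TATAAA in Junb. The rows follow in the order Egr1 (chr18:26736828-26737077, plus strand), Egr2 (chr20:21054442-21054691, minus strand), Ier2 (chr19:40399123-40399372, plus strand), Btg2 (chr13:48087691-48087940, minus strand) and Junb (chr19:40080876-40081125, plus strand).
Egr1: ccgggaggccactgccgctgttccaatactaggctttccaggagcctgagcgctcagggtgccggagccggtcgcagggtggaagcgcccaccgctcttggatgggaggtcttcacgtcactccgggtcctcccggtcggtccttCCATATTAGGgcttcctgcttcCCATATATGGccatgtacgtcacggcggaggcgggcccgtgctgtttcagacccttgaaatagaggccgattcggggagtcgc
Egr2: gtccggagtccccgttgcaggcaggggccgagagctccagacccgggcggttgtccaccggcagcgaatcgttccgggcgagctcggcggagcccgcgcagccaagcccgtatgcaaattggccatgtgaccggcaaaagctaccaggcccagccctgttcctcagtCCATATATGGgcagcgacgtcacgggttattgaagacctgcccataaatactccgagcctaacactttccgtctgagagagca
Ier2: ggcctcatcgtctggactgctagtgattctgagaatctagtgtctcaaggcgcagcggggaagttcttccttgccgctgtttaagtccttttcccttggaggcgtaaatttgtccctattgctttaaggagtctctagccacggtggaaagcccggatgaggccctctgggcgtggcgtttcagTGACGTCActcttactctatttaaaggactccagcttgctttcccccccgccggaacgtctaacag
Btg2: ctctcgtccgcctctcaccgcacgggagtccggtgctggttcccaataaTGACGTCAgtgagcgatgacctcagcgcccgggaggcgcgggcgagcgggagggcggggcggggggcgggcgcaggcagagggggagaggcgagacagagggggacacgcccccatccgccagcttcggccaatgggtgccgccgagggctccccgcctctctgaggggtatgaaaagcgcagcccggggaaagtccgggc
Junb: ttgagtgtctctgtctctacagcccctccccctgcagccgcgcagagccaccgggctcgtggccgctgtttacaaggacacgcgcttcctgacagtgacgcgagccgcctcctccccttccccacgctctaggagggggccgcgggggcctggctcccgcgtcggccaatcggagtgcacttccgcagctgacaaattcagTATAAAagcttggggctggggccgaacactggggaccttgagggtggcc

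Egr1 held 2 CArG boxes, the first 105 to 96 and the second 83 to 74 bases before the start. Egr2 held 1, with the same letters as the second box of Egr1 and at the same distance. A CArG box on either strand was present in 1.5% of 33469 start regions of this length. The full CRE stood 66 to 59 bases before the start in Ier2 and 201 to 194 bases before it in Btg2, and in 1.59% of all regions. The shorter form of that element, TGACG on either strand, lay outside a full CRE in Junb (155 to 151 bases before the start), Fosl1 and Egr1, among 6 members with a region in the table (Fosb, Fosl1, Fosl2, Junb, Egr1 and Ier2). It was present in 18.2% of all regions, counting those inside full CREs. The AP-1 element TGACTCA on either strand matched none of the 6, against 4.05% of all regions, and the EGR element GCGGGGGCG on either strand matched 1, Fosl2, against 2.45%. Junb held TATAAA, searched on the gene's strand, 49 to 44 bases before its start, as did 8.06% of all regions. A match in these letters is a description of the sequence and not of binding.

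The lungs with the highest Fos and Egr1 were also high in some, not all, of 7 T cell markers. Cd8a, the CD8 co-receptor, was 130 CPM in library 10 and 29.1 to 68.8 CPM in the other 1-day silica lungs, and Lck, a T cell kinase, was 58.9 CPM against 28.7 to 39.6 CPM there. Cd3e, a chain of the T cell receptor complex, was 12.6 CPM in library 10 and within 9.41 to 13 CPM in the others. Cd8a was also highest in its group in 6-month silica library 30-31 (207 CPM, others 53.3 to 75.6 CPM) and in 1-day air library 04-08 (69.9 CPM, others 35.7 to 40.3 CPM). Of the chains of the T cell receptor complex, Cd3e and Cd3d went the other way in both libraries. Cd3e was the lowest of its group in 30-31 (11.6 CPM, others 13.3 to 25.8 CPM) and in 04-08 (6.56 CPM, others 9.55 to 12.3 CPM), as was Cd3d (4.63 and 3.06 CPM). Cd3g was the lowest of its group in 30-31 (8.7 CPM) but the highest in 04-08 (14.5 CPM, others 8.15 to 9.88 CPM). Silica library 12 went the other way, with 68.8 CPM of Cd8a and the lowest Fos. Summed CPM of all 7 markers, none of which was at 0 in any lung, was 328 in library 10 and 183 to 229 in the other 1-day silica lungs, against 185 to 287 in air lungs. None of the 7 passed the test between silica and air at 1 day. The inducible heat shock gene Hspa1a was 102 CPM in library 10 and 45.1 to 56.5 CPM in the other silica lungs. The 6 heat shock genes together summed to 1640 to 1940 CPM in silica lungs, highest in library 10, against 1750 to 1880 CPM in air lungs, with none at 0 and 1 of 6 called, as lower in silica. Genes of killer lymphocytes, chosen after their values were seen, were also apart in library 10, with Klrc1 at 15.5 CPM and Cd160 at 9.42 CPM, against at most 3.49 and 1.28 CPM in the other silica lungs. The part of these cells and of heat shock genes in the early gene levels was not tested.

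**Figure D3:**
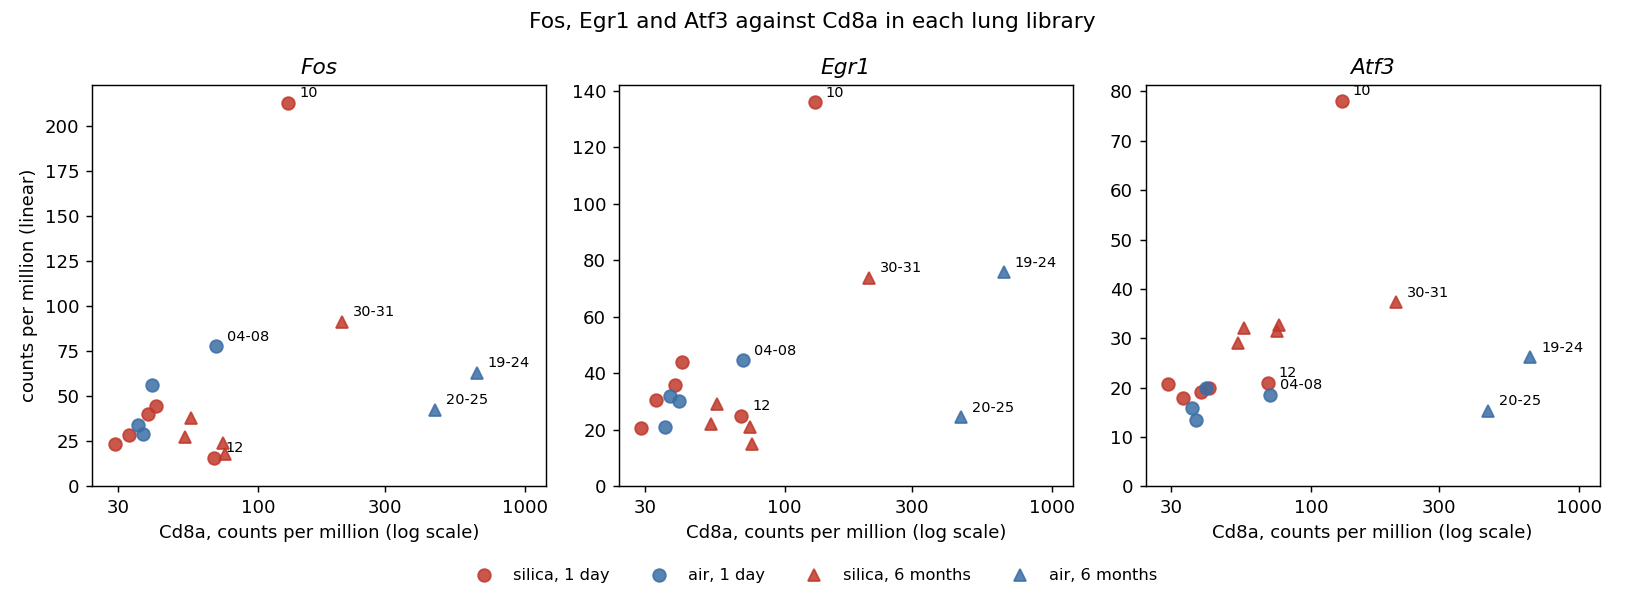
CPM of Fos, Egr1 and Atf3 (linear axes) against CPM of Cd8a (log axis) in the 17 lung libraries, with circles for 1 day and triangles for 6 months. Library 10 lies highest in each panel, and the late air libraries 19-24 and 20-25 have the most Cd8a without the most Fos or Atf3.

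Silica was compared with air in each tissue at each time with edgeR's quasi-likelihood test, adjusted over all genes tested. In lung at 1 day 11.7% of 15724 genes were called at an adjusted p under 0.05, and 0 of the 9 members tested were, with adjusted p of 0.326 to 0.897 and none at an unadjusted p under 0.05. DESeq2 called 0 of 10, with 1 at an unadjusted p under 0.05. Fosl1 had 1 to 8 counts a library and did not pass the filter on low counts. The log2 fold change, silica over air, was 0.30 ± 0.78 (SE) for Fos, 0.51 ± 1.03 for Fosb and 0.61 ± 0.58 for Egr1. It was 0.79 ± 0.50 for Atf3, 0.45 ± 0.25 for Ier3, 0.35 ± 0.24 for Junb and 0.16 ± 0.13 for Fosl2. It lay below 0 for Jun (-0.11 ± 0.12) and Ier2 (-0.05 ± 0.16). The median over the 9 was 0.35, against 0 over all genes tested. No member had separate ranges in the 2 groups, as 11.6% of genes had.

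Library 10 decided these values. It was singled out for its high member values, Jun and Ier2 among them, so leaving it out lowers the silica level and spread by choice. The calls without it are therefore not a separate test. Without it 2 members were called, both lower in silica: Jun at -0.23 ± 0.06 (edgeR adjusted p = 0.0366) and Ier2 at -0.21 ± 0.06 (adjusted p = 0.0332). Jun was 190 to 229 CPM in the remaining 5 silica lungs, against 226 to 269 CPM in the 4 air lungs, so the groups overlapped at 1 edge. Ier2 was 88.2 to 108 CPM in those silica lungs, against 113 to 118 CPM in air lungs, with no overlap once its highest silica lung was left out. The share of all genes with separate ranges in these 5 and 4 lungs was not counted. Fos turned to -0.70 ± 0.40, Fosb to -1.08 ± 0.48 and Egr1 to -0.04 ± 0.27, with adjusted p of 0.358, 0.224 and 0.952. Atf3 shrank to 0.21 ± 0.10, Ier3 to 0.20 ± 0.08, Junb to 0.12 ± 0.08 and Fosl2 to 0.05 ± 0.10. Genes called in all numbered 1667 of 15662 without library 10.

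**Figure D4:**
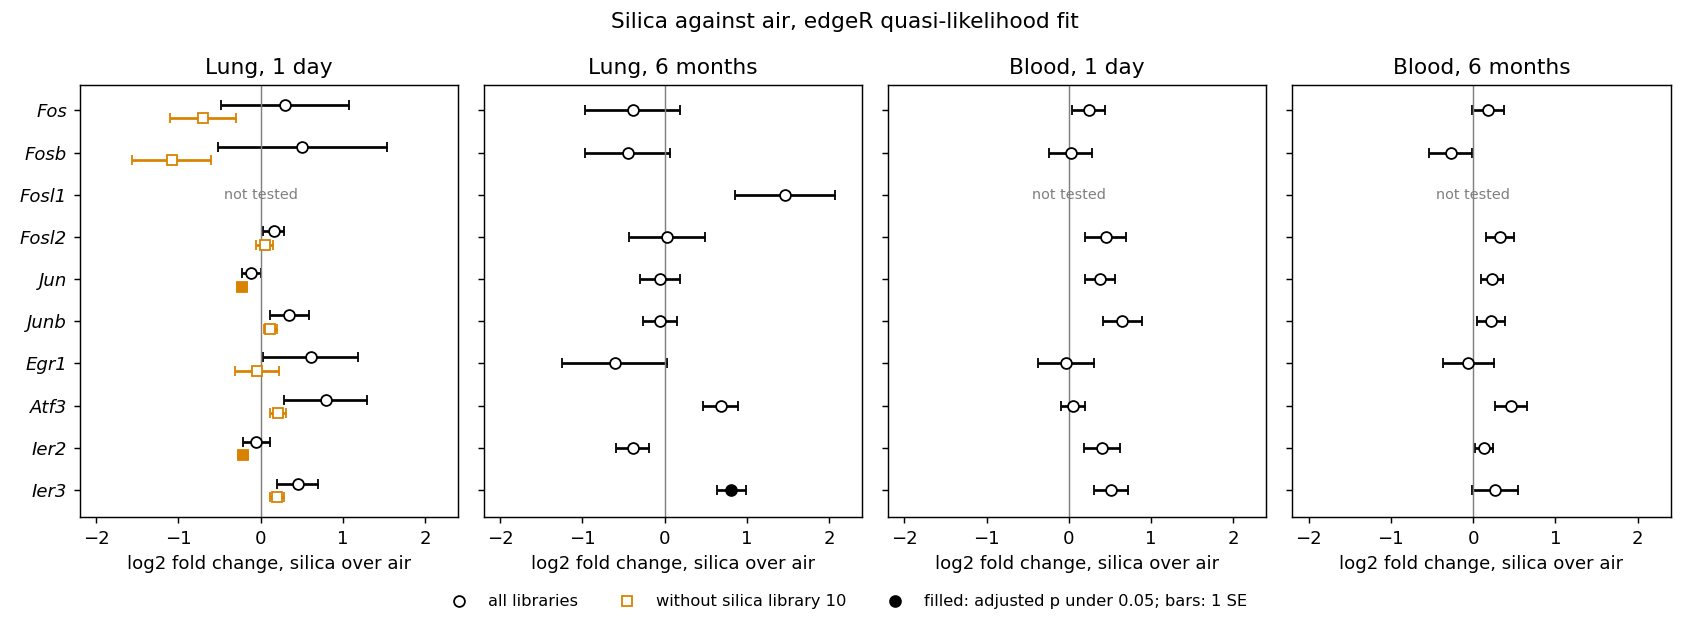
log2 fold change of silica over air (x axes) with 1 SE for each gene in the 4 comparisons; circles use all libraries, squares leave out silica library 10, and filled symbols have an adjusted p under 0.05. Ier3 at 6 months is the only filled circle, and Jun and Ier2 are filled at 1 day without library 10.

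Genes of 5 related lists were tested in the same fit, which called 11.7% of all genes. Several were as uneven between the silica lungs as the members, such as Egr2 at 12 ± 7.42 CPM in silica lungs and 6.85 ± 0.484 CPM in air lungs (SD, n = 6 and 4), and were not called. Of 19 other early-response transcription factors tested, 3 rose and 0 fell. Nr4a3, a nuclear receptor, was 10 ± 1.1 CPM in silica lungs and 3.31 ± 0.747 CPM in air lungs (SD, n = 6 and 4), a log2 change of 1.60 ± 0.14 (edgeR adjusted p = 1.01e-05). Bhlhe40, a repressor, rose by 0.48 ± 0.07 (adjusted p = 0.000811) and Ier5 by 0.18 ± 0.05 (adjusted p = 0.0465), but Ier5 was lost when any of 9 of the 10 libraries was left out (highest adjusted p = 0.20). Among 15 other AP-1 and bZIP partners tested, Batf, a partner of Jun proteins in lymphocytes, rose by 0.90 ± 0.13 (adjusted p = 0.00066) and 14 did not pass. Of 20 feedback genes 2 rose and 1 fell: Spry4, a brake on growth factor signals, at 0.33 ± 0.06 (adjusted p = 0.00184), the ERK phosphatase gene Dusp4 at 0.40 ± 0.11 (adjusted p = 0.0324) and the EGFR inhibitor gene Errfi1 at -0.45 ± 0.11 (adjusted p = 0.0226). Without library 10 the feedback list had 1 rise and 4 falls. Dusp4 was lost when any of 6 of the 10 libraries was left out, library 10 among them, and Errfi1 without air library 05 or 06. With all 4 lung groups in 1 fit, which called 594 genes in all, 0 feedback genes and 2 factors were called. Of 22 kinase and SRF pathway genes 0 were called (3 at an unadjusted p under 0.05; 0 by DESeq2).

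Of 19 AP-1 and EGR target genes tested at 1 day, 5 rose and 2 fell, beside 11.7% of all genes called. Their median log2 change was 0.39 (0.22 without library 10). Hmox1, haem oxygenase 1, was 76.8 ± 3.52 CPM in silica lungs and 40.5 ± 3.37 CPM in air lungs (log2 change 0.93 ± 0.06, adjusted p = 3.53e-07). Cd44, the hyaluronan receptor, rose by 0.46 ± 0.05 and Plaur, the urokinase receptor, by 0.59 ± 0.11. The cytokine gene Lif rose by 1.03 ± 0.28 (adjusted p = 0.0294) but was lost with any of 5 libraries left out, library 10 among them. Vegfa, the endothelial growth factor, fell by 0.26 and Plau, urokinase itself, by 0.31 on the log2 scale. With all 4 lung groups in 1 fit 3 targets rose and 0 fell, so both falls ended there. These 5 lists were drawn up with earlier results of these data known.

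At 6 months after exposure, Ier3 was the only member called among 10 tested, in a comparison that called 19.6% of 16265 genes. Ier3 (known for roles in cell survival) was 37.7, 34.6, 32.5, 28.1 and 25.1 CPM in silica lungs, against 19.2 and 17.4 CPM in air lungs. Every silica lung lay above both air lungs, and the log2 fold change was 0.81 ± 0.18 (edgeR adjusted p = 0.0201). The call was lost without air library 19-24 (0.75, adjusted p = 0.186), air library 20-25 (0.91, adjusted p = 0.0752) or silica library 34 (0.80, adjusted p = 0.0505). Atf3 was 29 to 37.3 CPM in the 5 silica lungs, against 26.2 and 15.3 CPM in air lungs, also without overlap, with a log2 fold change of 0.68 ± 0.21 (adjusted p = 0.057). DESeq2 called Atf3 (adjusted p = 0.0157), and so did edgeR without silica library 33 (adjusted p = 0.047). The log2 fold change of Atf3 was 1.12 without air library 19-24 and 0.36 without air library 20-25, uncalled in each. Ier3 and Atf3 make 2 of 10 members with separate ranges, against 45.3% of all genes tested in groups of 5 and 2.

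Fosl1, a Fos relative linked with matrix and epithelial change, was 1.03, 0.89, 0.826, 0.571 and 0.229 CPM in 6-month silica lungs, against 0.28 and 0.239 CPM in air lungs. Library 30-31 was the low silica lung and lay below both air lungs. These are 4 to 21 counts in silica libraries and 4 and 6 counts in air libraries, and the log2 fold change of 1.46 ± 0.61 did not pass (adjusted p = 0.133). Without library 30-31, left out as the low silica lung, it was 1.70 ± 0.41 and passed (edgeR adjusted p = 0.0282). In that fit 3567 of 16218 genes passed. The library was chosen for its low Fosl1, so leaving it out raises the silica level and narrows its spread by choice. This pass is therefore not a separate test.

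Fos and Egr1 were led by a single silica library at 6 months too. For Jun, Ier3, Ier2 and Atf3 the highest silica lung was only 1.05 to 1.14 times the next. Fos was 91.3 CPM in library 30-31 and 17.9 to 37.7 CPM in the other 4 silica lungs, against 63.1 and 42.6 CPM in air lungs. Without 30-31, picked for its high Fos, every silica lung lay below both air lungs. The log2 fold change of -0.39 ± 0.58 became -0.92 ± 0.29 (edgeR adjusted p = 0.0661). Leaving out the highest silica lung lowers the silica level and spread by choice, so these Fos values are not a separate test. The share of all genes with separate ranges without 30-31 was not counted. Egr1 was 73.8 CPM in 30-31 and 14.9 to 29.3 CPM in the others, against 75.8 and 24.5 CPM in air, so that both groups had 1 high lung. Its log2 fold change of -0.61 ± 0.64 (adjusted p = 0.543) turned to 0.42 without air library 19-24. Fosb gave -0.45 ± 0.52, Ier2 -0.39 ± 0.20 (adjusted p = 0.218), Jun -0.06 ± 0.24, Junb -0.06 ± 0.21 and Fosl2 0.03 ± 0.46. Fosl2 ranged from 3.98 to 15.7 CPM among silica lungs, against 9.58 and 9.35 CPM in air lungs. The median over the 10 members was -0.06, against 0 over all genes tested. Cd8a was 207 CPM in 30-31 and 53.3 to 75.6 CPM in the other silica lungs, against 660 and 459 CPM in air lungs. Of the 7 T cell markers 4 rose and 2 fell in silica at 6 months, and their summed CPM was 235 to 508 in silica lungs, against 968 and 783 in air lungs. Their part in the member levels was not tested.

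The same lists at 6 months stand beside 19.6% of all genes called in the main fit. DESeq2 called 4183 of 21864 genes, the fit of all 4 lung groups 6501 of 16568, and the fit with every library separate 6396 of 15910. Of the other early-response factors, 3 of 19 rose and 1 fell, but 2 rose and 5 fell with all 4 lung groups in 1 fit and 3 rose and 6 fell with every library separate. Egr2 was 13.1 ± 0.678 CPM in silica lungs and 7.17 ± 1.21 CPM in air lungs (SD, n = 5 and 2), a log2 change of 0.90 ± 0.16 (edgeR adjusted p = 0.0101). Cebpb (0.79 ± 0.15) and Cebpd (0.89 ± 0.22), bZIP factors of myeloid and acute-phase responses, rose, and Nfil3, a bZIP repressor, fell by 0.53 (adjusted p = 0.0327), a call lost in 6 of 7 fits that left out 1 library. Among 15 AP-1 and bZIP partners 4 rose and 0 fell (7 rose by DESeq2, 8 with every library separate or all 4 groups in 1 fit), among them the bZIP factors Maf (0.60 ± 0.17), Jdp2 (0.48 ± 0.13) and Batf3 (1.28 ± 0.36). Of 20 feedback genes Socs3, an inhibitor of cytokine signals, rose by 0.89 ± 0.14, and the phosphatase gene Dusp2 fell by 1.43. Of 22 kinase and SRF pathway genes 2 fell, the kinase gene Rps6ka1 by 1.92 and the SRF cofactor gene Elk3 by 0.65, while DESeq2 called 6 lower and 2 higher, and the fit of all 4 lung groups 10 lower and 2 higher. Of 19 AP-1 and EGR targets 8 rose and 1 fell. F3, tissue factor, was 165 ± 35 CPM in silica lungs and 46.3 ± 10.1 CPM in air lungs (log2 change 1.87 ± 0.26, adjusted p = 0.00698), and Hmox1 (1.57 ± 0.25), Plaur (1.35 ± 0.27) and Timp1 (1.01 ± 0.26) also rose. Nab2, a corepressor of EGR factors, fell by 1.04 (adjusted p = 0.00975). All these 6-month list calls were lost without air library 19-24, when 57 genes were called in all. Without air library 20-25 all 4 factors, Maf, Jdp2, Batf3, Socs3, Elk3, Hmox1, Plaur and Timp1 were lost. Maf, Jdp2, Batf3, Elk3 and Timp1 were also lost without silica library 32, 34 or 35.

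Between the times, the silica effect at 6 months minus that at 1 day was called for 26.8% of 16568 genes in lung and for 0 of 10 members (0 at an unadjusted p under 0.05; 0 by DESeq2). Egr1 had the widest difference, -1.24 ± 0.90 on the log2 scale (edgeR adjusted p = 0.336), and Ier3 differed by 0.34 ± 0.34 (adjusted p = 0.495). Without library 10, left out for its high values, the difference for Ier3 was 0.58 ± 0.18 and passed (edgeR adjusted p = 0.0324). In that fit 3934 of 16552 genes passed. Library 10 was the highest 1-day silica lung for Ier3, so leaving it out lowers the 1-day effect and its spread by choice. This pass is therefore not a separate test. Group means of a member seldom had separate ranges from the next in order. In lung the exceptions were Ier2, higher in 6-month air lungs (144 ± 31.8 CPM) than in 1-day air lungs (115 ± 2.36 CPM), and Ier3, lower in 6-month air lungs (18.3 ± 1.27 CPM, n = 2) than in 1-day air lungs (26.3 ± 2.77 CPM, n = 4). The share of all genes with separate ranges between these air groups was not counted. Groups this small separate easily: 45.3% of genes had separate ranges between silica and the same 2 air libraries at 6 months.

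In blood at 1 day 0 of 11876 genes were called, which is 0% (430 at an unadjusted p under 0.05; 0 by DESeq2), and 0 of 9 members, of which 3 had an unadjusted p under 0.05 by either tool. Junb was 99.6 CPM at the lowest, 118 CPM at the median and 291 CPM at the highest in silica blood, against 79.9, 86.6 and 124 CPM in air blood. The log2 fold change was 0.65 ± 0.24 (edgeR adjusted p = 1) and 0.35 ± 0.12 without silica library 11, which was the highest. Library 11 also led Fos (55.3 CPM, next 35 CPM), Fosl2 (20.6 CPM, next 8.59 CPM), Ier2 (143 CPM, next 79.3 CPM), Jun (25.7 CPM), Egr1 (2.35 CPM) and Ier3 (4.31 CPM). Ier3 was 2.47 to 4.31 CPM in silica blood, against 1.61 to 3.02 CPM in air blood (0.51 ± 0.21), and Jun was 11.1 to 25.7 CPM against 11.8 to 16.1 CPM in air blood (0.38 ± 0.18), both with an adjusted p of 1. Junb, Ier3 and Jun are the 3 members with an unadjusted p under 0.05. No member had separate ranges, as 0.194% of genes had. Fosb and Egr1 were near 1 CPM in either group (log2 fold changes 0.02 ± 0.26 and -0.03 ± 0.34). Fosl1 had 0 to 6 counts a library and was not tested; where it had 0, 3 counts would be 0.187 CPM. Library 11 stood apart at large: its TMM factor of 0.775 was the lowest at 1 day (next 0.924), and against each other silica blood library 71.5% to 74.9% of genes differed at p under 0.05 by the chi-square test. It had the lowest summed neutrophil markers, 1900 CPM, with 3950 to 5730 CPM in the other silica blood libraries, against 2370 to 4090 CPM in air blood. It had the highest summed platelet markers, 2850 CPM, with 1180 to 2270 CPM in the others, against 1300 to 2130 CPM in air blood. None of 8 neutrophil and 5 platelet markers tested was called between groups, and the part of these cells in the member levels was not tested.

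**Figure D5:**
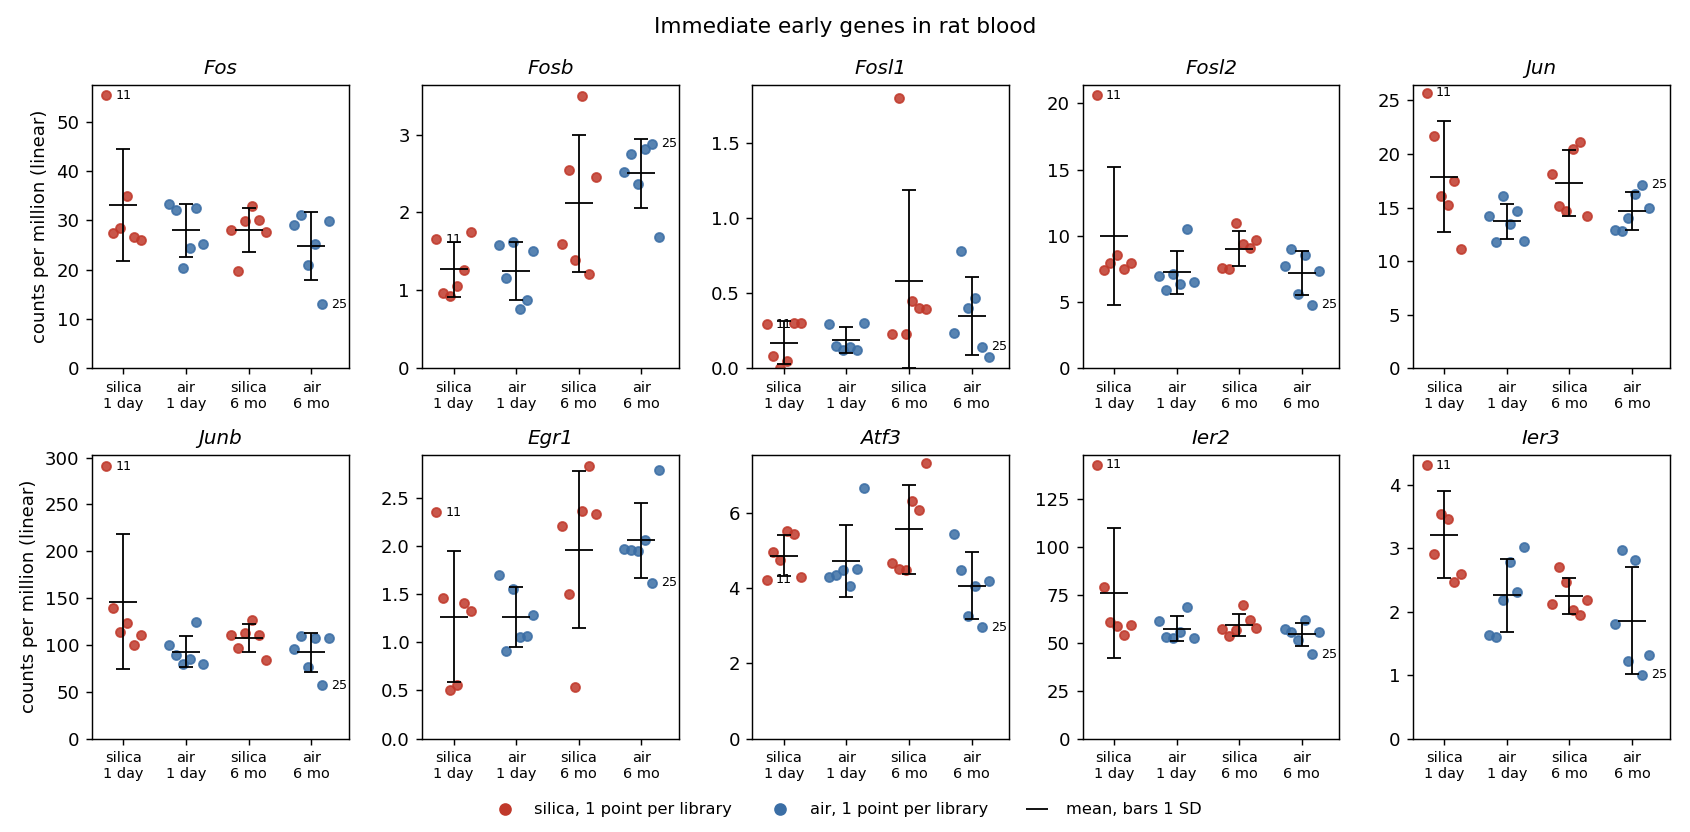
CPM (linear axes, each with its own range) of the 10 genes in every blood library, silica left of air at each time; bars give the mean and 1 SD, with lower bars cut at 0. Silica library 11 is the highest 1-day silica point for Fos, Fosl2, Jun, Junb, Egr1, Ier2 and Ier3, and air library 25 is the lowest 6-month air point for Fos, Fosl2, Junb, Egr1, Atf3, Ier2 and Ier3.

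In blood at 6 months 0 of 11615 genes, 0%, were called by edgeR (720 at an unadjusted p under 0.05; 7 by DESeq2) and 0 of 9 members (1 at an unadjusted p under 0.05; 0 by DESeq2). Atf3 was 4.48, 5.36 and 7.31 CPM at the lowest, median and highest in silica blood, against 2.95, 4.12 and 5.43 CPM in air blood. The ranges overlapped, and the log2 fold change was 0.46 ± 0.19 (edgeR adjusted p = 0.658). Fosl2 was 7.49 to 11 CPM in silica blood, against 4.82 to 9.02 CPM in air blood (0.33 ± 0.17). Summed neutrophil markers were 3750 to 6620 CPM in silica blood, against 1690 to 4380 CPM in air blood, with none of 7 tested called and air library 25 the lowest, and their part was not tested. Without air library 25, whose TMM factor of 1.73 was the highest, the log2 fold change was 0.02 ± 0.14 for Fos, 0.09 ± 0.13 for Junb and 0.05 ± 0.09 for Ier2. With all libraries they were 0.18 ± 0.19, 0.22 ± 0.17 and 0.13 ± 0.11. No member had separate ranges, as 0.448% of genes had. The difference between times in blood was called for 0% of 12264 genes by edgeR (335 at an unadjusted p under 0.05; 1 by DESeq2) and for 0 of 9 members (0 at an unadjusted p under 0.05; 0 by DESeq2); Atf3 differed by 0.42 ± 0.24. All 5 related lists had 0 genes called in blood at both times, with at most 3 of a list at an unadjusted p under 0.05.

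Of the 10 members 4 had every lung above every blood library, and 6 overlapped. Over 16444 genes, 59.1% had separate ranges between the tissues. As plain CPM, without TMM, Egr1 had a median of 30.5 CPM over 17 lung libraries and 1.58 CPM over 24 blood libraries, a ratio of 19.2. Jun (231 against 15.8 CPM), Ier3 (28.4 against 2.46 CPM) and Atf3 (20.7 against 4.81 CPM) were the other 3 with separate ranges. Junb (115 against 104 CPM), Fosl2 (9.39 against 8.29 CPM) and Fos (37.5 against 28.4 CPM) overlapped between the tissues, as did Ier2, Fosb and Fosl1. Blood minus lung, the silica effect was called for 0.192% of 16148 genes at 1 day and 1.17% of 16444 genes at 6 months, and for 0 members at each time (1 of 9 and 0 of 10 at an unadjusted p under 0.05; 0 by DESeq2). At 1 day it was 0.51 ± 0.22 for Jun (edgeR adjusted p = 0.66), and at 6 months -0.68 ± 0.39 for Ier3 (adjusted p = 0.489). Without lung silica library 10, picked for its high values, 4 of 9 members had an unadjusted p under 0.05 at 1 day. None was called in that fit, which called 24 of 16090 genes. The median over the 9 members was 0.53 there, against 0.09 with all libraries. In blood the member most correlated with the mean of the others over 24 libraries was Ier2 (r = 0.85), followed by Junb (0.80), Fosl2 (0.77) and Fos (0.65), with Atf3 at 0.20 and Fosb at 0.14. The 8 genes most like the blood mean, S1pr4 (0.91) and Arap1 (0.89) among them, shared none with the 8 named for lung.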

How the data were processed

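Values are the estimated counts per gene that the authors deposited in 4 tables, 1 per tissue and time, which are not whole for every gene. Among tools, the submitters' processing notes list Salmon 1.10.1, STAR 2.6.1d, Trim Galore 0.6.7, cutadapt 3.4 and bcl2fastq 2.19, without roles, and as build Rnor_6.0; an annotation release was not given in the sources used here. Per the labels' protocols, libraries were stranded and made from mRNA, and blood was kept in RNAlater. Groups follow the treatment, tissue and time labels. The labels tie no sample to an animal, so the p-values reflect only how these samples spread, which may be technical.

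Counts were rounded. Within groups, each pair of samples was set against sampling noise with a chi-square test over genes with whole counts (tolerance 1e-06) and a mean of at least 20, and pairs with under 10% of genes at p under 0.05 were averaged. The test was edgeR 4.0.16 (R 4.3.3): filterByExpr (minimum count 10), TMM, robust quasi-likelihood fits, Benjamini-Hochberg over all genes, threshold 0.05. The SE is the log2 fold change divided by the root of F. Display CPM uses TMM over a tissue; means in related lists use the fit's own TMM. Fits were tested on simulated counts with the same dispersion for every gene and no library set apart. That test does not cover genes led by a single library, as many members were. Named genes are all members and, per related list, at most 6 genes called with at least 1 CPM in a group; alike genes are the 8 with the highest r. The alternatives were RLE factors, no scaling, no filter, DESeq2 1.42.0, every library separate, all groups of a tissue in 1 fit, a replicate block and leaving out each library. Promoters come from RefSeq's GRCr8 table, in which 6 of 10 members were matched by symbol. The members and lists were chosen with earlier results of these data known. Bach2, of the bZIP list, was not found by its name. A few genes that the rule names are not reported here.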

Additional observations from a re-analysis of the deposited data

Results flagged for a closer look

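Among 70 combinations of a member and a group of 4 to 6 libraries, 18 held a library beyond Dixon's 95% limit. That limit sets the distance from the nearest neighbour against the group's range, with a nominal rate of about 1 in 20. Over all genes tested, the share with such a library was 5.78% to 6.93% in lung groups and 6.82% to 30.5% in blood groups. The members move together and 15 of the 18 come from 3 libraries, so these are not separate events. Of these, 8 were silica library 10 in 1-day lung, with Fos at 213, Fosb at 72.5, Jun at 303, Junb at 243, Egr1 at 136, Atf3 at 78.1, Ier2 at 165 and Ier3 at 64.1 CPM. The gap took 0.949 of the range for Atf3 and 0.905 for Fosb. Over all 15724 genes tested, 1.52% had library 10 as such a high value. Silica library 30-31 in 6-month lung had 3, Fos at 91.3, Junb at 165 and Egr1 at 73.8 CPM, as did 1.71% of 16265 genes. Silica library 11 in 1-day blood had 4, Fos at 55.3, Fosl2 at 20.6, Junb at 291 and Ier2 at 143 CPM, as did 14.9% of 11876 genes. The others were single genes: Fosl1 at 1.8 CPM in silica library 31 of 6-month blood, Fosl2 at 10.5 CPM in air library 08 and Atf3 at 6.65 CPM in air library 09 of 1-day blood. All 18 were high values.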

How the results depend on the processing

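Over 37 member values of silica against air and 598 alternatives of them, 560 kept their direction and their side of the threshold, 7 passed only under the alternative, 3 lost the call and 28 turned their direction, all of them uncalled. Counts of members called moved as follows. In lung at 1 day the count was 2 without silica library 10, where 1667 of 15662 genes were called. It was 0 to 2 over all libraries left out in turn. In lung at 6 months it was 2 with DESeq2, which called 4183 of 21864 genes. It was 3 (Fosl1, Atf3 and Ier3) with every library as a separate sample, which called 6396 of 15910 genes. With silica libraries left out in turn it was 0 to 2. A fit with a lone air library assumes that this library varies like the silica ones. For the lung difference between times the count was 1 without silica library 10, where 3934 of 16552 genes were called, and otherwise 0. With every library separate, Junb in 6-month lung was 0.03. With no scaling factors, added after seeing the data, the log2 fold change was -0.06 for Fosb in 1-day blood, and -0.02 for Fos, -0.12 for Jun, -0.04 for Junb and -0.14 for Ier2 in 6-month blood. Leaving out libraries gave ranges across 0 in 1-day lung of -0.70 to 0.60 for Fos, -1.08 to 0.92 for Fosb and -0.04 to 0.80 for Egr1. In 6-month lung they were -0.22 to 0.24 for Fosl2, -0.33 to 0.33 for Jun, -0.19 to 0.08 for Junb and -1.19 to 0.42 for Egr1. In 1-day blood they were -0.09 to 0.11 for Fosb and -0.27 to 0.14 for Egr1, and in 6-month blood -0.20 to 0.14 for Egr1. The cause was not tested. With sample numbers as a replicate block over both tissues, which uses fewer samples, 4 genes and 0 members were called at each time, against 31 and 193 genes without it. With the block, 6 of 9 members at 1 day and 0 of 10 at 6 months had an unadjusted p under 0.05. Deviations of same-numbered samples correlated at -0.18 to 0.40 over 9 numbers at 1 day and -0.15 to 0.18 over 8 at 6 months. Of these 2 and 1 were above 0.1, and 1 and 0 were best with their own number. Lung and blood of the same animal need not deviate together, so these values cannot show whether equal numbers mean the same animal. Fosl1 had at most 21 counts in any library, which limits its values.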
